A study of Mus musculus with 4 samples.

Results

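The 34 genes described here make, or control the making of, sterols and fatty acids in the mouse cell, and they were taken by name from the deposited expression tables. Of the 34, 33 had a row of their own among 22739 gene names, and 32 passed the filter on low values and entered the test. The list holds 5 regulators (Srebf1, Srebf2, Scap, Insig1 and Insig2), a sterol arm of 17 enzymes, a fatty acid arm of 11 enzymes, and the sterol carrier Stard4. Rows that named several genes were left out, which removed Tm7sf2, a sterol reductase whose only row is shared with Vps51. That shared row, chosen for mention after its values were seen, had 14.7 and 12.6 FPKM in shTex10 cells, against 19.1 and 12.6 FPKM in shLuci cells, and its values cannot be divided between the pair of genes. Hmgcs1, the cytosolic HMG-CoA synthase, was listed at 0 in every library in both of its rows, which lie on an unplaced part of chromosome 13 in the mm9 build, so it gave no value here. FPKM is the number of fragments scaled to the length of the transcript and to the size of the library.

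Poly(A) RNA came from CCE, an embryonic stem (ES) line of mouse strain 129SV kept on gelatin with 15% serum and leukemia inhibitory factor (LIF). Tex10 was knocked down by short hairpin RNA (shRNA) in 2 libraries (shTex10), and 2 libraries had an shRNA to luciferase, which mouse cells do not make, in its place (shLuci). The series compares the knockdown with this control, and its design text calls the libraries of each group biological replicates. Nothing more was said of separate cultures, of the hairpin sequences or of the time after transduction, so p-values measure only the spread between these samples, which may be technical.

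Cells make cholesterol from acetyl-CoA through mevalonate, isoprenoid diphosphates, squalene and lanosterol, and they make fatty acids from the same acetyl-CoA through malonyl-CoA, followed by elongation and desaturation. The sterol regulatory element binding proteins (SREBPs), encoded by Srebf1 and Srebf2, are membrane-bound transcription factors that activate both pathways. SCAP carries them to the Golgi apparatus for cleavage when sterols are scarce, INSIG proteins hold SCAP in the endoplasmic reticulum when sterols are plentiful, and Insig1 is itself a target of the pathway. At their target promoters SREBPs are known to act together with the factors NF-Y, which binds CCAAT boxes, and Sp1, which binds GC boxes.

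Promoter sequences of 27 of the 34 members were found in the RefSeq table of the GRCm38.p6 build, which reads from 250 bases before to 50 bases after each annotated start, 36 promoters in all. No entry was matched for Fdps, Fdft1, Sqle, Scd1, Scd2, Fads1 or Stard4. The sequence is that of the reference strain and not of 129SV. A CCAAT box (letters CCAAT, either strand) was found in 13 of 14 sterol members, 5 of 8 fatty acid members and 4 of 5 regulators, against 41.1% of the 27025 genes in the table. Among the 8652 tested genes with a promoter in the table the share was 43.7%. At least 2 CCAAT boxes stood in 9 of 14 sterol members (Dhcr7, Ebp, Hmgcs1, Hsd17b7, Idi1, Mvd, Mvk, Nsdhl and Sc4mol) and in 2 of 8 fatty acid members (Elovl5 and Fasn), against 13.3% of all genes. Of the 31 matches in sterol members, 28 lay before the annotated start, in a window with 250 bases before it and 50 after. Evenly spread matches would also lie mostly before the start, and the share over all genes was not counted. A GC box (GGGCGG, either strand) stood in 13 of 14 sterol members, 4 of 8 fatty acid members and 5 of 5 regulators, against 38.2% of all genes and 70.7% of the tested genes. The sterol regulatory element searched (TCACNCCAC, either strand) was found in 1 of 27 members, Hmgcs1, against 1.44% of all genes and 1.42% of the tested genes. An E-box (CACGTG, which reads the same on either strand) was found in 3 sterol members, 1 fatty acid member and 2 regulators, against 8.09% of all genes and 12.2% of the tested genes. These are matches of letters in a window, and no binding was measured in these libraries.

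A set of 8 promoters is printed to show the CCAAT boxes where they are many (Mvk, Hmgcs1, Nsdhl, Sc4mol), in the members that fell by 2-fold or more and are in the table with a match (Cyp51, Insig1, Fasn, Sc4mol), and in a member whose transcript was higher and whose window holds none (Scap). Each is written 5′ to 3′ on the strand of its gene, and capitals mark CCAAT or its reverse complement ATTGG and, in Hmgcs1 alone, the sterol regulatory element as well. In Fasn 1 pair of matches overlaps and reads as an 8-letter palindrome. Cases of the other kind are not printed. Elovl1, also higher, holds 1 CCAAT box, and Insig2, which did not pass the test, holds 3 in 1 of its promoters. Acat2, Fads2 and Elovl6, which were lower, hold none. Nor does the window of Acaca, which fell by more than 2-fold and is counted among the 8 fatty acid members. That window reads like the end of an intron, with an exon from the annotated start. It may therefore not hold the promoter of Acaca. The GRCm38.p6 positions are chr13:119690101-119690400 on the plus strand for Hmgcs1, chr5:114444019-114444318 on the plus strand for Mvk, chrX:72918271-72918570 on the plus strand for Nsdhl, chr8:64733529-64733828 on the minus strand for Sc4mol, chr5:4104648-4104947 on the minus strand for Cyp51, chr5:28071162-28071461 on the plus strand for Insig1, chr11:120824498-120824797 on the minus strand for Fasn and chr9:110333038-110333337 on the plus strand for Scap.
Hmgcs1: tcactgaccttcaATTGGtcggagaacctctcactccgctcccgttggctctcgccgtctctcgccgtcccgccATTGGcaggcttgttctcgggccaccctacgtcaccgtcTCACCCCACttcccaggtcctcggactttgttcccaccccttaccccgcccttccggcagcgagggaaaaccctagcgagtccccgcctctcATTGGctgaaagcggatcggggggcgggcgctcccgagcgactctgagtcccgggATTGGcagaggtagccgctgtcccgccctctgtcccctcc
Mvk: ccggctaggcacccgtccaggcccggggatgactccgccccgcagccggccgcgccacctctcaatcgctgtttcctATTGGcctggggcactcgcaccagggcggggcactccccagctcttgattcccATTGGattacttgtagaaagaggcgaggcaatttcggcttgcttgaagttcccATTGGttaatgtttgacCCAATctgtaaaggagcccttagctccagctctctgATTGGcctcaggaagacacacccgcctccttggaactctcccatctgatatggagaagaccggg
Nsdhl: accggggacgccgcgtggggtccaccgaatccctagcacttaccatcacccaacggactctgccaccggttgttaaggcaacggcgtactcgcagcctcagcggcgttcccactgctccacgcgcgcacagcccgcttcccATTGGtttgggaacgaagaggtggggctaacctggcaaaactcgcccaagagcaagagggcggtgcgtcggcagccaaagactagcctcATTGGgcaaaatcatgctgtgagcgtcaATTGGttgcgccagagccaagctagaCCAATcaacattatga
Sc4mol: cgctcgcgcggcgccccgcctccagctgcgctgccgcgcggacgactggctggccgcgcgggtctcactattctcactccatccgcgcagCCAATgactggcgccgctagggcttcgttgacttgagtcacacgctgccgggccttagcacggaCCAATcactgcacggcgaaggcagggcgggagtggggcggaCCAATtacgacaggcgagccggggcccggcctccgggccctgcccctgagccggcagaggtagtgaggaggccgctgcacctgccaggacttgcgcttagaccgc
Cyp51: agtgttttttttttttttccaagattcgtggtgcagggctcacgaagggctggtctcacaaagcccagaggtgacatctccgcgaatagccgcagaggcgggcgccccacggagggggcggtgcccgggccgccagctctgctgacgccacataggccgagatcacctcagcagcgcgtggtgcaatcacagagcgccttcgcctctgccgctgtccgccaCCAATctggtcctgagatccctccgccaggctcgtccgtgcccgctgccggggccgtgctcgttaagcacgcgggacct
Insig1: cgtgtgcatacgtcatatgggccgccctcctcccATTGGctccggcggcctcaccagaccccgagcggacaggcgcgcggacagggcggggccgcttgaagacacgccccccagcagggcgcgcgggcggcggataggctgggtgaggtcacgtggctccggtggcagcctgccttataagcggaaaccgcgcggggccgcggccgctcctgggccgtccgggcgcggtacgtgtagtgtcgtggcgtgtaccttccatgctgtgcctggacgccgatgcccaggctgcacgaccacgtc
Fasn: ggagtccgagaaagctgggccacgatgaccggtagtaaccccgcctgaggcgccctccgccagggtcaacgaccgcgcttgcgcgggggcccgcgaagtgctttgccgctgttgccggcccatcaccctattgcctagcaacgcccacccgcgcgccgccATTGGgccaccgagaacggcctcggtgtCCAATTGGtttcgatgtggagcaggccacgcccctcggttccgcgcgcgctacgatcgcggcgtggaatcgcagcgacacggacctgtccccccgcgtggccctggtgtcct
Scap: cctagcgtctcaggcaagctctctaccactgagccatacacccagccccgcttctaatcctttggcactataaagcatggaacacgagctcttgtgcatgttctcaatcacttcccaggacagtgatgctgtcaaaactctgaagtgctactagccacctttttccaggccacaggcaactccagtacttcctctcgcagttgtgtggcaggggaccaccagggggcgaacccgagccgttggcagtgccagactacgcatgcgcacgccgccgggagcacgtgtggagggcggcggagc

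Tex10 itself was reduced: it had 11.6 and 13.4 FPKM in shTex10 cells, against 77.3 and 82.1 FPKM in shLuci cells, so 15.7% of the shLuci mean remained. Replicates correlated across tested genes with Pearson r of 0.989 for shTex10 and 0.990 for shLuci, against 0.941 to 0.946 across the groups. Of the 11883 tested genes, 31.8% were lower and 19.8% higher in shTex10 cells (limma, Benjamini-Hochberg adjusted p under 0.05), so that a call in either direction was made for 51.6%. The median change of all tested genes was -0.14 on the log2(FPKM + 1) scale, on which all changes below are given. Among 12 ES cell markers 8 were lower and 4 did not pass, and their summed level was 4446 and 4815 FPKM in shTex10 cells, against 5543 and 5944 FPKM in shLuci cells. Much of that sum was Dppa5a, which did not pass, at 2467 and 2917 FPKM in shTex10 cells, against 2432 and 2999 FPKM in shLuci cells. Pou5f1 and Zfp42 were lower, at 64.3% and 60.6% of their shLuci means. Of 10 tested trophectoderm markers 9 were higher and 1, Tead4, was lower. The list summed to 624 and 616 FPKM in shTex10 cells, against 281 and 288 FPKM in shLuci cells, most of it from Krt8 and Krt18. Cdx2 and Elf5, defining members, were not tested: Cdx2 averaged under 1 FPKM, and Elf5 stayed below 1 FPKM in every library. All 6 tested markers of 2-cell-like cells were higher, with sums of 425 and 466 FPKM in shTex10 cells, against 55.7 and 63.7 FPKM in shLuci cells. Of 12 markers of primitive and visceral endoderm, 11 were below 1 FPKM in every library, Gata4, Gata6 and Sox17 among them, and the summed level was 6.65 and 6.96 FPKM in shTex10 cells, against 4.17 and 3.67 FPKM in shLuci cells. The only one tested, Dab2, was higher, with 3.04 and 3.54 FPKM in shTex10 cells, against 1.19 and 1.38 FPKM in shLuci cells. Of 11 fibroblast markers 4 (Col3a1, Lum, Dcn and Prrx1) were below 1 FPKM in every library. Of the 7 tested, 2 were lower (Col1a2 and Fn1) and 5 did not pass, and the list summed to 310 and 285 FPKM in shTex10 cells, against 361 and 340 FPKM in shLuci cells, most of it from Vim and Fn1. The part of these shifts in the changes of the sterol and fatty acid genes was not tested, and in bulk RNA fewer cells of a type and less RNA per cell cannot be told apart.

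Most of the sterol and fatty acid genes were lower after Tex10 knockdown. Of the 32 tested members, 27 were lower, 2 were higher (Scap and Elovl1) and 3 did not pass the test (Srebf1, Insig2 and Acss2), beside the 31.8% of all tested genes called lower and the 19.8% called higher. Their median change was -0.72, or -0.59 relative to the median of all genes. Both shTex10 libraries lay below both shLuci libraries for 28 of the 32, against 48.1% of all tested genes, and above both for 2, against 28.3%. With 2 libraries a group, an exact two-sided permutation test of a single gene cannot go below p = 0.33, so the calls rest on limma's estimate of spread across all genes. A change of 2-fold or more downward was called for 6 members, Insig1, Cyp51, Sc4mol, Acaca, Fasn and Scd1, beside 3.05% of all tested genes.

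**Figure D1:**
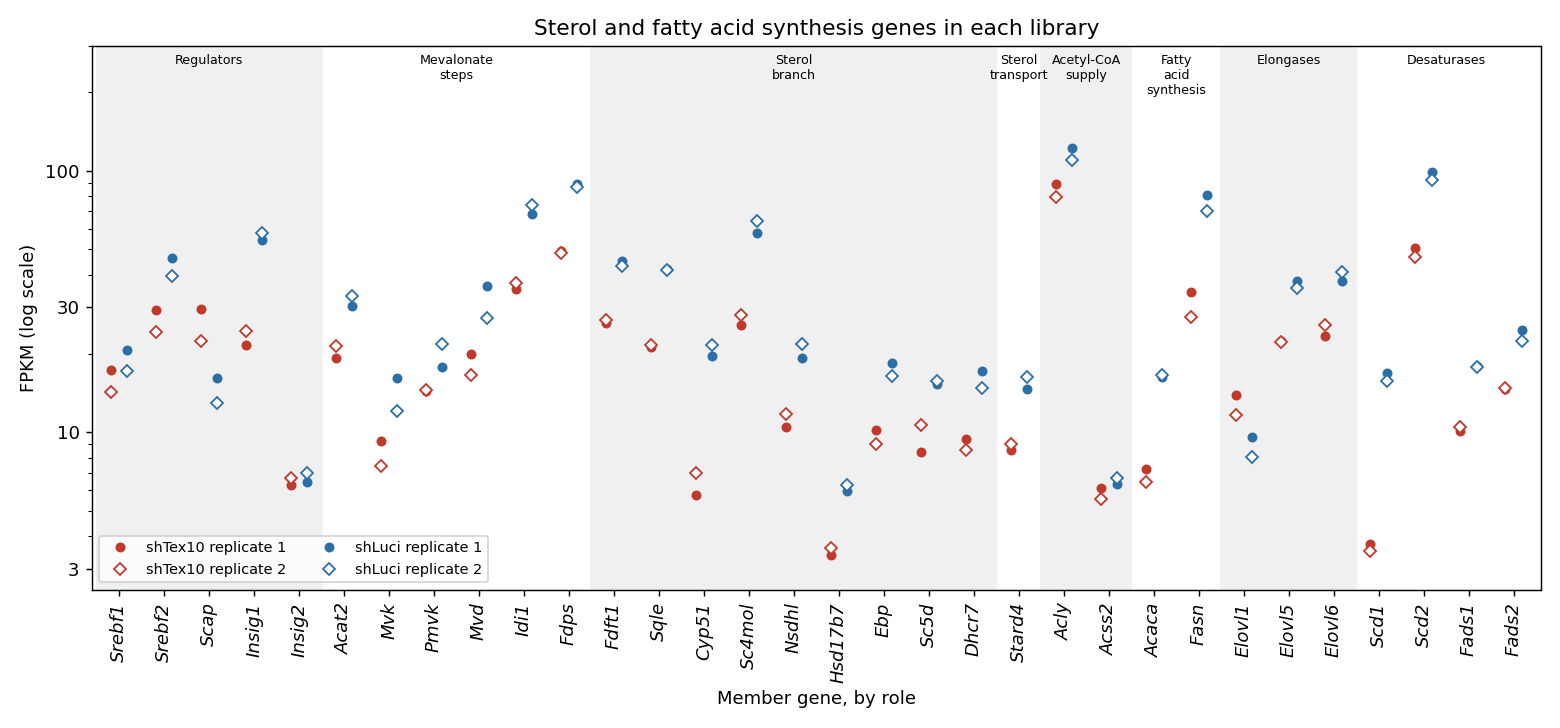
FPKM of the 32 tested members in each of the 4 libraries, on a log scale, with shTex10 in red left of shLuci in blue, circles for replicate 1 and diamonds for replicate 2, and genes ordered by role on a shaded background. The red points lie under the blue ones for 28 members and over them for Scap and Elovl1.

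How the libraries are scaled to each other bears on how many of these calls stand. Unnamed rows took 70.8% and 68.8% of all FPKM in the shTex10 libraries, against 56.3% and 71.6% in the shLuci libraries. The sums over all rows were 1.40e+06 and 2.22e+06 FPKM in shLuci replicates 1 and 2. Their sums over named genes were close, at 613642 and 632067 FPKM. With every library brought to the same sum over all rows, the members' changes stayed near those given here, but only Cyp51 and Scd1 remained past the threshold (limma, adjusted p = 0.00759 and 0.000262), beside 1.99% of all tested genes called lower and 5.51% called higher. This scaling moved the named genes of the shLuci replicates apart, and the members' SEs rose, for Fdps from 0.08 to 0.44. With the same sum over named genes, 22 members were lower and 2 higher, beside 16% and 27.2% of all tested genes. In that setting the median of all genes moved to 0.06, and Srebf2, Mvk, Pmvk, Mvd and Acly lost their calls. With scaling to the median gene, 25 members were lower and 2 higher, beside 21.4% and 23.9% of all tested genes. Quantile normalization gave the same counts, 25 and 2, beside 24.5% and 20.2%. None of the 29 called members changed direction under any of the 16 settings in which it was fitted. Hsd17b7 was fitted in 15 of them, since its mean was under 5 FPKM and 1 setting used that minimum.

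**Figure D2:**
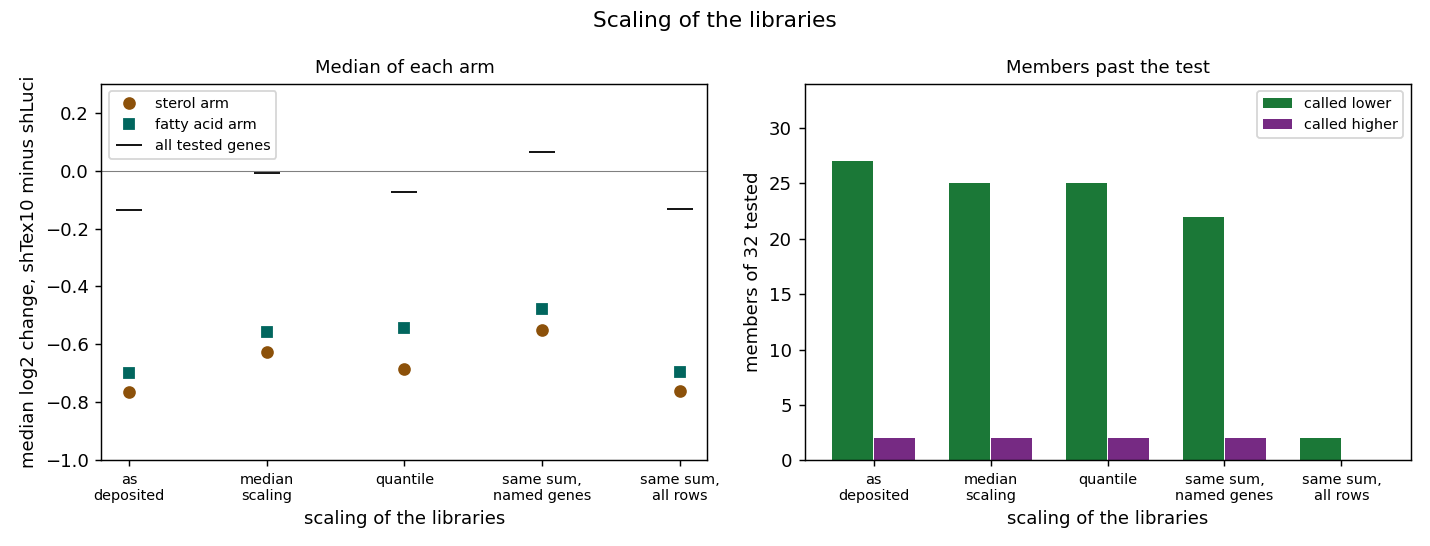
Median log2 change of the sterol arm, the fatty acid arm and all tested genes (left, shTex10 minus shLuci) and the number of members called lower or higher (right) under each scaling of the libraries. Both arms stay below the median of all genes in each setting, and the count called lower is 27 as deposited and 2 with the same sum over all rows.

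Among the regulators the changes ran in different directions. Srebf2, whose product drives sterol synthesis in the main, had 29.3 and 24.2 FPKM in shTex10 cells, against 46.5 and 39.5 FPKM in shLuci cells. Both shTex10 values were below both shLuci values, and Srebf2 was lower by limma (log2 change -0.67, SE 0.13, adjusted p = 0.00943), a call that was lost when named genes were brought to the same sum (adjusted p = 0.0572). Srebf1, whose products act in the main on fatty acid synthesis, had 17.3 and 14.3 FPKM in shTex10 cells, against 20.6 and 17.1 FPKM in shLuci cells. The replicates overlapped between the groups, and Srebf1 did not pass the test (limma, adjusted p = 0.186).

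Scap went the other way. It had 29.6 and 22.4 FPKM in shTex10 cells, against 16.2 and 12.9 FPKM in shLuci cells, with both shTex10 libraries above both shLuci libraries (log2 change 0.79, SE 0.17; limma, adjusted p = 0.0116). Within each library, the ratio of Scap to Srebf2, in FPKM, was 1.01 and 0.927 in shTex10 cells, against 0.348 and 0.328 in shLuci cells. Scap and Srebf2 were thus at about the same level per length in shTex10 cells, and Scap was the lower of the pair in shLuci cells.

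Insig1, the INSIG gene that SREBPs activate, had 21.6 and 24.4 FPKM in shTex10 cells, against 54.3 and 57.8 FPKM in shLuci cells. The groups stood far apart relative to the replicates, and Insig1 was lower with a log2 change of -1.25 (SE 0.10; limma, adjusted p = 0.000538). Insig2, which acts on SCAP in the same way, had 6.28 and 6.66 FPKM in shTex10 cells, against 6.45 and 6.97 FPKM in shLuci cells. Its groups overlapped and it did not pass the test (log2 change -0.05, SE 0.09; limma, adjusted p = 0.708). The ratio of Insig1 to Insig2 was therefore 3.44 and 3.66 in shTex10 cells, against 8.41 and 8.29 in shLuci cells.

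**Figure D3:**
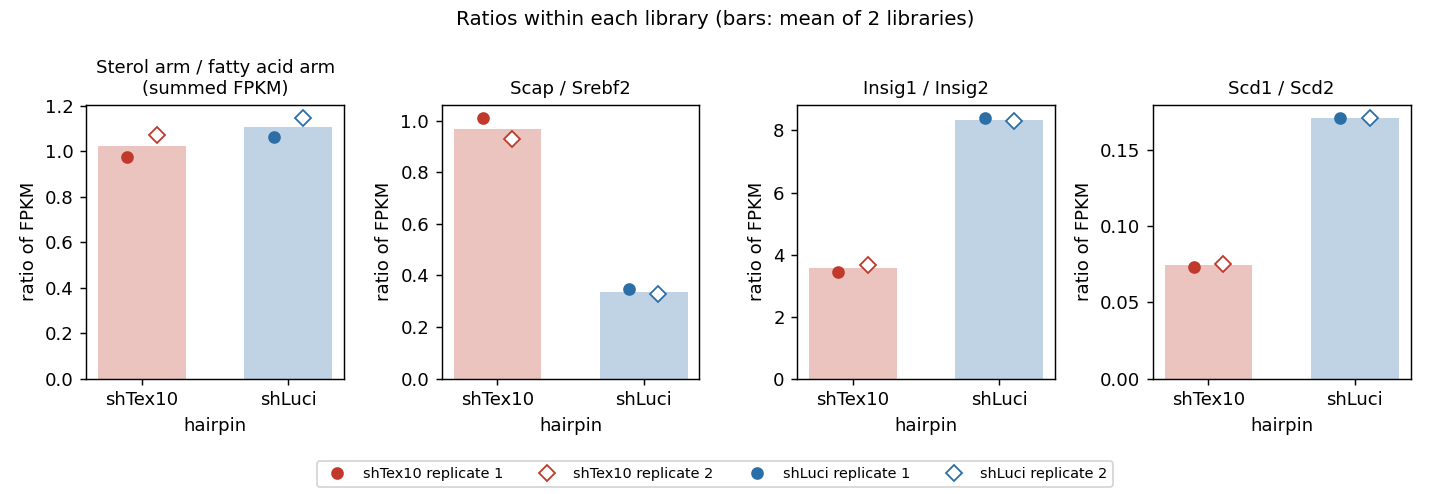
Ratios of FPKM within each library for shTex10 (red) and shLuci (blue), with bars for the mean of 2 libraries, circles for replicate 1 and diamonds for replicate 2. The arm ratio overlaps between the groups, while Scap over Srebf2 is higher in both shTex10 libraries and Insig1 over Insig2 and Scd1 over Scd2 are lower in both.

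The enzymes from acetyl-CoA to farnesyl diphosphate were all lower among those tested. All 6 tested members of this stretch passed, with changes of -0.95 to -0.42 and a median of -0.72, and their summed level was 147 and 146 FPKM in shTex10 cells, against 258 and 255 FPKM in shLuci cells. Acat2, the cytosolic thiolase that makes acetoacetyl-CoA, had 19.2 and 21.3 FPKM in shTex10 cells, against 30.5 and 33.2 FPKM in shLuci cells. All of its shTex10 values were below its shLuci values. Its locus in the files overlaps Tcp1, a chaperonin gene at 247 and 273 FPKM in shTex10 cells, against 376 and 424 FPKM in shLuci cells. Tcp1 was lower by about as much (log2 change -0.62, against -0.63 for Acat2). Reads of this overlap cannot be told apart if the counting did not use strand. The Acat2 locus also overlaps Acat3, at 20.8 and 21.8 FPKM in shTex10 cells, against 30.6 and 34.8 FPKM in shLuci cells. Acat3 was lower by about as much too (log2 change -0.59), and it shares sequence with Acat2, as given below. Tcp1 and the other overlapping genes named here were chosen for mention after their values were seen.

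The mevalonate kinases and the decarboxylase followed. Mvk, mevalonate kinase, had 9.25 and 7.44 FPKM in shTex10 cells, against 16.1 and 12.1 FPKM in shLuci cells. Mvd, the decarboxylase that makes isopentenyl diphosphate, had 19.9 and 16.6 FPKM in shTex10 cells, against 36.4 and 27.4 FPKM in shLuci cells. In both genes replicate 1 was the higher library of each group, and the groups did not overlap (log2 changes -0.69, SE 0.17, and -0.76, SE 0.16; limma, adjusted p = 0.0179 and 0.0116). With the same sum over named genes both lost their calls (limma, adjusted p = 0.0852 for Mvk and 0.0564 for Mvd). Pmvk, phosphomevalonate kinase, had 14.4 and 14.5 FPKM in shTex10 cells, against 17.7 and 21.8 FPKM in shLuci cells. This was the smallest change called in the sterol arm (log2 change -0.42, SE 0.12; limma, adjusted p = 0.0295). The Pmvk call was lost without shLuci replicate 2 (limma, adjusted p = 0.177), with scaling to the median gene (0.100) and with quantile normalization (0.0866). It was lost as well without the filter on low values (limma, adjusted p = 0.0531).

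Idi1, the isomerase that turns isopentenyl into dimethylallyl diphosphate, had 35.2 and 37.2 FPKM in shTex10 cells, against 68.2 and 73.8 FPKM in shLuci cells. Fdps, farnesyl diphosphate synthase, had 49.4 and 48.5 FPKM in shTex10 cells, against 89.3 and 86.6 FPKM in shLuci cells, the highest level in the sterol arm. Neither gene's groups overlapped, and both were lower (log2 changes -0.95, SE 0.09, and -0.83, SE 0.08; limma, adjusted p = 0.000939 and 0.00104). In GENCODE vM21, 75.8% of the 100-base windows of Fdps transcripts and 27.6% of those of Idi1 occur in transcripts of other genes as well. For Acat2 the share was 35.3%, and all 760 of these windows occur in Acat3 transcripts. The levels of Fdps, Idi1 and Acat2 therefore depend on how shared reads were assigned.

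The enzymes that commit farnesyl diphosphate to sterols and then trim lanosterol were also lower. All 9 tested members of this branch passed, with changes of -1.55 to -0.66 and a median of -0.80. Their summed level was 121 and 127 FPKM in shTex10 cells, against 241 and 245 FPKM in shLuci cells, so that 51.0% of the shLuci level remained, against 57.1% for the steps before. The difference between these stretches was not tested.

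Squalene synthase (Fdft1), the step at which carbon is committed to sterols, had 26.1 and 26.9 FPKM in shTex10 cells, against 45.3 and 43.2 FPKM in shLuci cells. Squalene epoxidase (Sqle), a rate-controlling step, had 21.2 and 21.5 FPKM in shTex10 cells, against 42.0 and 41.6 FPKM in shLuci cells. The replicates of each were close together and the groups far apart (log2 changes -0.71, SE 0.09, and -0.94, SE 0.08; limma, adjusted p = 0.00184 and 0.000743). Of Fdft1's 100-base windows 21.5% recur in other genes' transcripts, and its locus overlaps Ctsb, which had 25.5 and 26.4 FPKM in shTex10 cells, against 28.7 and 26.2 FPKM in shLuci cells.

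The largest change in the sterol arm was that of Cyp51, lanosterol 14-alpha-demethylase. It had 5.75 and 6.98 FPKM in shTex10 cells, against 19.5 and 21.5 FPKM in shLuci cells, and 31.0% of the shLuci mean remained. No other sterol member was reduced as far (log2 change -1.55, SE 0.12; limma, adjusted p = 0.000476). Sc4mol, the C-4 methyl sterol oxidase that acts after it and is now called Msmo1, had 25.7 and 27.9 FPKM in shTex10 cells, against 57.7 and 64.1 FPKM in shLuci cells. This was the second largest change of the arm, with the groups apart (log2 change -1.15, SE 0.10; limma, adjusted p = 0.000688). The promoters of these genes printed above hold 1 CCAAT box in Cyp51 and 3 in Sc4mol.

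The remaining demethylation and isomerization steps changed less, by -0.82 to -0.66. Nsdhl, the C-4 decarboxylating dehydrogenase, had 10.5 and 11.8 FPKM in shTex10 cells, against 19.2 and 21.7 FPKM in shLuci cells. Hsd17b7, the 3-keto-sterol reductase of the same complex, was the least abundant sterol enzyme, with 3.38 and 3.60 FPKM in shTex10 cells, against 5.99 and 6.27 FPKM in shLuci cells. In both genes the groups were apart by more than the gap between replicates (log2 changes -0.82, SE 0.11, and -0.67, SE 0.09; limma, adjusted p = 0.00245 and 0.00277).

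Ebp, the sterol isomerase, had 10.2 and 9.00 FPKM in shTex10 cells, against 18.3 and 16.5 FPKM in shLuci cells. Sc5d, the desaturase that follows, had 8.42 and 10.7 FPKM in shTex10 cells, against 15.3 and 15.8 FPKM in shLuci cells. Dhcr7, the 7-dehydrocholesterol reductase, had 9.44 and 8.56 FPKM in shTex10 cells, against 17.2 and 14.7 FPKM in shLuci cells. None of these overlapped between the groups, and their log2 changes were -0.80, -0.66 and -0.76 (SE 0.11, 0.13 and 0.11; limma, adjusted p = 0.00266, 0.00810 and 0.00356). Stard4, a soluble carrier that moves cholesterol between membranes and is a known SREBP target, had 8.56 and 8.98 FPKM in shTex10 cells, against 14.6 and 16.2 FPKM in shLuci cells. It stood with the enzymes, below shLuci in both libraries (log2 change -0.75, SE 0.10; limma, adjusted p = 0.00233).

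The fatty acid arm was more varied. Of its 11 members 9 were lower, Elovl1 was higher and Acss2 did not pass, with changes of -1.90 to 0.49 and a median of -0.70. The enzymes that supply acetyl-CoA had the smallest changes of the arm. Acly, ATP citrate lyase, was the most abundant member of all, with 89.2 and 79.6 FPKM in shTex10 cells, against 123 and 110 FPKM in shLuci cells. The groups did not overlap (log2 change -0.46, SE 0.10; limma, adjusted p = 0.0145), but the call was lost without shLuci replicate 1 or without shTex10 replicate 2 (limma, adjusted p = 0.0543 each). It was also lost with scaling to the median gene (limma, adjusted p = 0.0546), with quantile normalization (0.264) and with the same sum over named genes (0.151). Acss2, the cytosolic acetyl-CoA synthetase, had 6.11 and 5.55 FPKM in shTex10 cells, against 6.35 and 6.68 FPKM in shLuci cells. Its shTex10 values were both lower, but it did not pass the test (log2 change -0.14, SE 0.10; limma, adjusted p = 0.269), and its change was 0.06 with the same sum over named genes.

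The enzymes that build palmitate changed more. Acaca, acetyl-CoA carboxylase, which makes malonyl-CoA, had 7.25 and 6.45 FPKM in shTex10 cells, against 16.2 and 16.5 FPKM in shLuci cells. Fasn, the fatty acid synthase, had 34.5 and 27.5 FPKM in shTex10 cells, against 80.5 and 70.1 FPKM in shLuci cells. Both were lower by more than 2-fold with groups far apart, and 41.8% and 41.2% of the shLuci means remained (log2 changes -1.15, SE 0.10, and -1.26, SE 0.14; limma, adjusted p = 0.000634 and 0.00136). For Acaca, 42.8% of the 100-base windows recur in transcripts of other genes.

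The elongases split. Elovl5 and Elovl6, which lengthen polyunsaturated acids and palmitate, were lower. Elovl5 had 22.4 and 22.1 FPKM in shTex10 cells, against 38.0 and 35.7 FPKM in shLuci cells, and Elovl6 had 23.3 and 25.7 FPKM in shTex10 cells, against 38.0 and 41.1 FPKM in shLuci cells. Their changes were close, -0.70 (SE 0.09) and -0.67 (SE 0.10), with no overlap between groups (limma, adjusted p = 0.00206 and 0.00339). Elovl1, which lengthens saturated acids to very long chains, had 13.8 and 11.7 FPKM in shTex10 cells, against 9.62 and 8.01 FPKM in shLuci cells. It was higher in both shTex10 libraries (log2 change 0.49, SE 0.13; limma, adjusted p = 0.0242). The call was lost without shLuci replicate 2 (limma, adjusted p = 0.0724), without shTex10 replicate 1 (0.0577) and without the filter on low values (0.0504). The Elovl1 locus overlaps Cdc20, a cell cycle gene that had 127 and 123 FPKM in shTex10 cells, against 159 and 146 FPKM in shLuci cells, and was itself lower (log2 change -0.29).

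Scd1 had the largest change of the 32 tested members. This stearoyl-CoA desaturase, which makes oleate, had 3.73 and 3.51 FPKM in shTex10 cells, against 16.9 and 15.7 FPKM in shLuci cells, and 22.2% of the shLuci mean remained. The shTex10 libraries were close to each other and far below (log2 change -1.90, SE 0.09; limma, adjusted p = 0.000194). Scd2, a second enzyme of the same reaction and far more abundant here, had 50.7 and 46.7 FPKM in shTex10 cells, against 98.6 and 91.8 FPKM in shLuci cells. It was lower too, by less (log2 change -0.95, SE 0.09; limma, adjusted p = 0.000988), and the ratio of Scd1 to Scd2 was 0.0735 and 0.0753 in shTex10 cells, against 0.171 and 0.171 in shLuci cells. Few 100-base windows of either gene recur in other genes' transcripts, 2.66% for Scd1 and 0.896% for Scd2.

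The front-end desaturases of polyunsaturated acids were both lower. Fads1 had 10.1 and 10.5 FPKM in shTex10 cells, against 17.9 and 17.7 FPKM in shLuci cells. Fads2 had 14.6 and 14.8 FPKM in shTex10 cells, against 24.7 and 22.4 FPKM in shLuci cells. Neither overlapped between groups, and the log2 changes were -0.73 and -0.64 (SE 0.09 each; limma, adjusted p = 0.00175 and 0.00334).

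**Figure D4:**
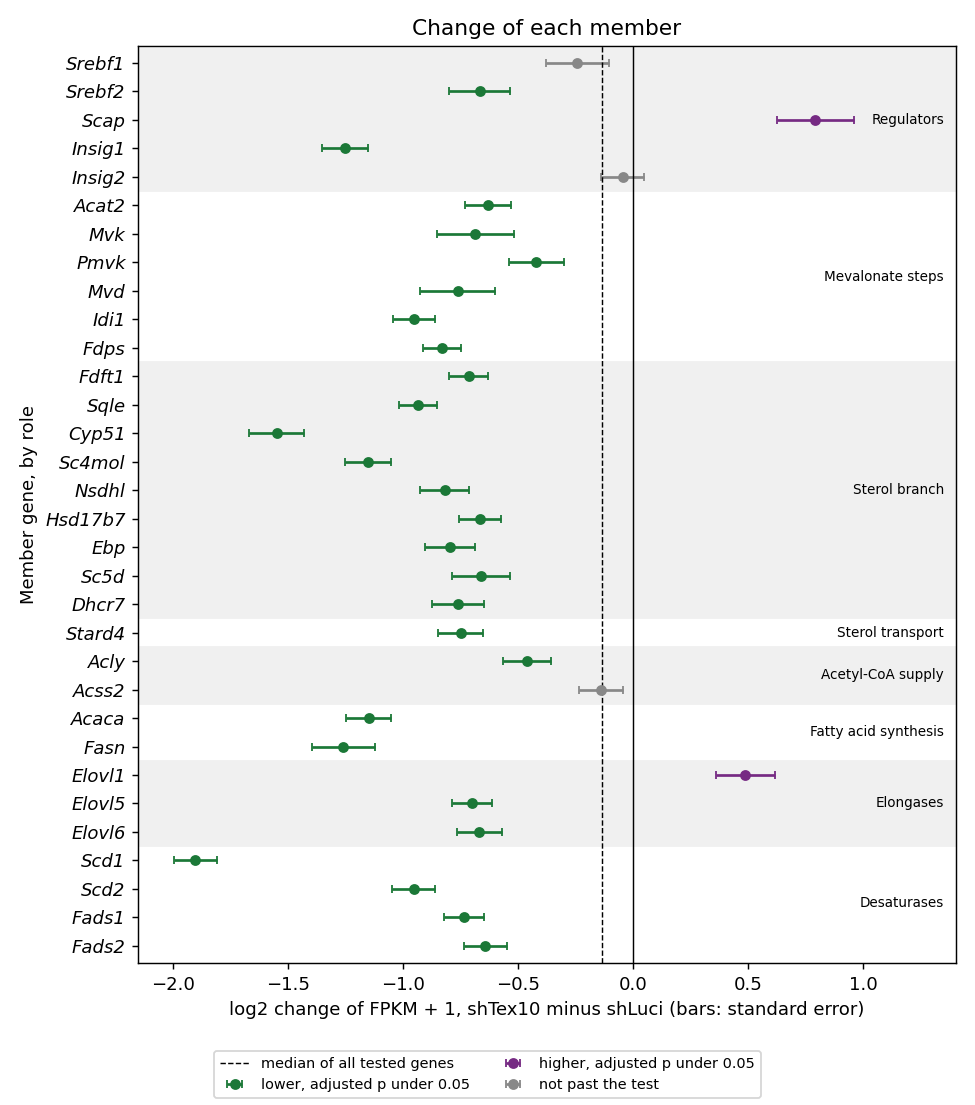
Log2 change of FPKM + 1 (shTex10 minus shLuci) of the 32 tested members with its standard error, by role, with the median of all tested genes as a dashed line at -0.14. Scd1 at -1.90 and Cyp51 at -1.55 lie farthest to the left, and Scap at 0.79 and Elovl1 at 0.49 lie to the right of 0.

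Set side by side, the summed levels of both arms were lower in both shTex10 libraries. The sterol arm summed to 268 and 273 FPKM in shTex10 cells, against 499 and 500 FPKM in shLuci cells, and 54.1% of the shLuci level remained. The fatty acid arm summed to 276 and 254 FPKM in shTex10 cells, against 469 and 436 FPKM in shLuci cells, and 58.5% remained. The median change was -0.76 in the sterol arm and -0.70 in the fatty acid arm, or -0.63 and -0.56 relative to all genes. The difference of -0.06 is smaller than 0.10, the replicate SDs of the arm medians (0.076 and 0.069) combined as if the arms varied independently. The spread of the difference itself was not measured. The same difference was 0.03 without shLuci replicate 1. The ratio of the summed arms overlapped between the groups, at 0.972 and 1.07 in shTex10 cells, against 1.06 and 1.15 in shLuci cells. What differed in these values was the range: every tested sterol enzyme was lower, with changes within -1.55 to -0.42, while the fatty acid arm ran over -1.90 to 0.49. Without Acly and Acss2 the median of the fatty acid arm was -0.73, and without Acat2 that of the sterol arm was -0.78.

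Other genes of the sterol pathway were listed apart from the members and chosen with earlier results of these data known. Their counts stand beside 31.8% of all tested genes called lower and 19.8% called higher. Of 10 genes of other isoprenoid branches 7 were lower and 3 did not pass, with a median of -0.38, and Pdss2, which makes the ubiquinone side chain, was at -0.61. Of 10 genes of SREBP processing and of sterol-regulated protein degradation 4 were lower and 6 did not pass, with a median of -0.26, and Rnf145, a ubiquitin ligase of the sterol response, was at -1.06.

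Genes of cholesterol uptake and transport did not share one direction. Of 18 tested, 5 were lower, 6 higher and 7 did not pass, beside 31.8% of all tested genes lower and 19.8% higher. Their median was 0.07. Tmem97 and Npc2, which act in sterol trafficking, were lower at -0.95 and -0.66. Gramd1b, a sterol transporter at membrane contacts, was higher at 0.83. Of 7 tested genes of the liver X receptor and cholesterol efflux list 2 were higher and 5 did not pass: Abcg1, an exporter, had 3.30 and 3.01 FPKM in shTex10 cells, against 1.63 and 1.397 FPKM in shLuci cells, and Abca1 had 4.29 and 4.80 FPKM in shTex10 cells, against 3.17 and 2.94 FPKM in shLuci cells.

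Further fatty acid synthesis genes were mixed as well: of 15 tested, 6 were lower, 4 higher and 5 did not pass, with a median of 0.04. Over all tested genes 31.8% were lower and 19.8% higher. Tecr, the last reductase of the elongation cycle, was lower at -0.74, while Elovl2 and Fads3, an elongase and a desaturase-like gene, were higher at 0.69 and 0.73. The higher genes were at low levels. Elovl2 had 3.62 and 3.57 FPKM in shTex10 cells, against 1.87 and 1.83 FPKM in shLuci cells. Fads3 had 1.94 and 2.01 FPKM, against 0.815 and 0.766 FPKM. Tecr had 85.8 and 75.7 FPKM in shTex10 cells, against 144 and 127 FPKM in shLuci cells. Of 9 tested genes that supply NADPH 5 were lower and 4 did not pass, with a median of -0.65. Among these, Mthfd2, a mitochondrial folate enzyme, had 17.7 and 18.01 FPKM in shTex10 cells, against 40.1 and 41.3 FPKM in shLuci cells. Pgd, of the pentose phosphate pathway, had 47.5 and 40.4 FPKM in shTex10 cells, against 92.0 and 74.4 FPKM in shLuci cells. Both genes were lower in both shTex10 libraries (log2 changes -1.14 and -0.90, SE 0.08 and 0.14; limma, adjusted p = 0.000433 and 0.00404). With the same sum over all rows, none of the genes named from the further isoprenoid, SREBP processing, uptake, efflux, fatty acid synthesis and NADPH lists kept its call, with an adjusted p of 0.0968 for Mthfd2 (limma). The members' SEs rose in that setting, as given above.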

How the data were processed

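Poly(A)-selected RNA of 4 libraries was read as 100-bp single ends, per the labels' protocols. The deposited values are FPKM per gene and library, which the authors made without pooling replicates. Tools credited to the submitters' processing notes are Cufflinks 2.1.1, TopHat2 2.0.10 and Bowtie2 2.1.0, with build mm9. Options, annotation and handling of strand were not given in the sources used here. FPKM keeps no counts, so the precision that depth gives is unknown: a rough estimate from the smallest values put relative depth at 83.2% and 91.7% in shTex10 and 94.3% in shLuci replicate 2, with shLuci replicate 1 as 100%.

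Rows sharing a name were summed. The 11883 names averaging 1 FPKM or more (rows naming several genes included) were fitted by limma 3.58.1 under R 4.3.3 as log2(FPKM + 1) (eBayes with a trend, no replicate block), Benjamini-Hochberg adjusted over all of them, threshold 0.05. The pseudocount understates changes of low genes. The fit was tested on simulated data with few changed genes and no difference in library scaling. That test does not bear on how scaling affects the calls. Promoters were matched by symbol to RefSeq GRCm38.p6. Members and lists were chosen with earlier results of these data known. Genes named are all members, the 4 tested genes of smallest p in each further list, and the 3 highest markers. The marker genes given by name as below 1 FPKM, and the genes listed as changed in a set, were named from their lists. The alternatives were 16 settings of the fit and 2 definitions of the arms. Some genes of the further lists are not reported here.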

Additional observations from a re-analysis of the deposited data

Results flagged for a closer look

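Lss, the lanosterol synthase that closes the sterol ring, had no row of its own, and the row that names it with Mcm3ap, fitted with all genes but left out of the comparison of members, stood above its level in the control cells. It had 200 and 195 FPKM in shTex10 cells (mean 198), against 78.0 and 73.8 FPKM in shLuci cells (mean 75.9), with a log2 change of 1.37 (SE 0.09). Both shTex10 values were above both shLuci values, opposite to the tested sterol enzymes, and the value cannot be divided between the genes. Mcm3ap is not a gene of sterol synthesis, and which of the genes moved was not tested.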

How the results depend on the processing

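Of the 29 called members, Pmvk, Acly, Elovl1, Srebf2, Mvk and Mvd lost their calls in the settings named beside them, and with the same sum over all rows all but Cyp51 and Scd1 did: calls were then 892 over all genes, 1 in the sterol arm, 1 in the fatty acid arm and 0 among regulators (limma; 1 regulator, 4 sterol and 4 fatty acid members had an unadjusted p under 0.05). Arm medians (sterol, then fatty acid) were -0.63 and -0.56 with median scaling, -0.68 and -0.54 with quantile normalization, and -0.55 and -0.48 with the same sum over named genes, where higher genes were 62.9% of calls, against 73.4% with all rows and 38.3% as deposited. Leaving out each library in turn gave sterol medians of -0.87 to -0.70 and fatty acid medians of -0.74 to -0.71, the lone library being assumed to vary like the other group. Insig2, never called, changed sign with median scaling (0.0806), the same sum over named genes (0.15) and on leaving out a library (-0.0938 to 0.00275, above 0 without shLuci replicate 2), and Acss2 with named genes (0.0575). Replicate numbers are not said to pair libraries (deviations of replicate 1 correlated at 0.33). With a replicate block, 8919 genes were called and Srebf1 joined the lower members (limma, adjusted p = 0.00311), and no other member's call changed. Groups of 2 libraries, unknown depth and reads shared between overlapping or similar genes limit all values. So does the lack of a hairpin count, since the labels give only the target of each group.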

Other observations

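Genes that store and burn fat were described by lists of their own, in the same fit. Counts from these lists stand beside 19.8% of all tested genes called higher and 31.8% called lower. Of 9 tested genes of lipid droplets and lipolysis 5 were higher, 3 lower and 1 did not pass, with a median change of 0.40. The 3 lower genes were Pnpla2, Pnpla3 and Lipe, so the list did not share one direction. Plin2, which coats lipid droplets, had 93.8 and 96.1 FPKM in shTex10 cells, against 24.7 and 25.0 FPKM in shLuci cells (log2 change 1.89, SE 0.08; limma, adjusted p = 0.000157). Mgll, a monoglyceride lipase, had 4.47 and 4.72 FPKM in shTex10 cells, against 1.52 and 1.16 FPKM in shLuci cells. Abhd5, the activator of the main triglyceride lipase, had 10.2 and 12.1 FPKM in shTex10 cells, against 3.82 and 4.59 FPKM in shLuci cells. Neither overlapped between the groups, and Cidea, a droplet protein, was higher as well (log2 change 1.04).

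Of 22 tested genes of fatty acid oxidation 6 were higher, 2 lower (Cpt1a and Acaa2) and 14 did not pass, with a median of 0.07. The shares over all tested genes were 19.8% higher and 31.8% lower, here and for the lists that follow. Etfdh, which passes electrons from oxidation to the respiratory chain, had 28.2 and 31.98 FPKM in shTex10 cells, against 11.5 and 12.2 FPKM in shLuci cells. Slc25a20, the carnitine carrier of mitochondria, had 46.8 and 50.9 FPKM in shTex10 cells, against 29.8 and 29.8 FPKM in shLuci cells. Cpt1c and Ppard were higher by 1.29 and 1.12 on the log2 scale. Among 23 tested genes of triglyceride and phospholipid synthesis 6 were higher, 4 lower and 13 did not pass. The 4 lower genes were Gpam, Agpat3, Chpt1 and Ptdss2. The median of this list was -0.12, close to the -0.14 of all tested genes. Agpat9, an acyltransferase of glycerol 3-phosphate, had 8.35 and 9.40 FPKM in shTex10 cells, against 1.31 and 1.37 FPKM in shLuci cells, and Lpin1, a phosphatidate phosphatase, had 11.5 and 11.4 FPKM in shTex10 cells, against 4.17 and 4.25 FPKM in shLuci cells. Of 10 tested genes of fatty acid activation and binding 2 were lower, Acsl1 and Acsl6, and 8 did not pass. With the same sum over all rows Plin2, Mgll, Cidea, Abhd5, Etfdh, Cpt1c, Agpat9 and Lpin1 kept their calls, and Slc25a20 and Ppard (limma, adjusted p = 0.478 and 0.104), Acsl1 and Acsl6 lost theirs.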
